A study of Mus musculus with 24 samples.

Results

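The cerebella of 4 SCA1 mice were compared with those of 4 WT mice from the same sequencing batch, 8 of the 24 libraries of the series. SCA1 mice carried the genotype Atxn1_154Q/2Q, with 1 knockin Atxn1 allele whose repeat codes for a long run of glutamines (Q) and 1 unexpanded mouse allele of 2 glutamines. WT mice carried Atxn1_2Q/2Q. All were 6 weeks old, and the SCA1 line had been backcrossed to C57BL/6J. The members were the 4 SCA1 libraries and those WT libraries in which over 8% of all fragments fell outside annotated genes, which took 4 of the 8 WT mice. The batch was inferred from that share, because the labels do not give it. The share was 9.52% to 11.5% in the 8 libraries and 5.23% to 6.31% in the other 4 WT mice, which are called the other batch below and enter no test unless stated. The expanded allele is at the mouse locus and is therefore made in every cell that uses Atxn1. Each library was 1 whole cerebellum, so a lower level can mean fewer cells of a type or less RNA per cell, and these cannot be told apart.

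Spinocerebellar ataxia type 1 is a dominant disorder of movement caused by a longer CAG repeat in ATXN1, a nuclear protein that binds RNA and works with the repressor Capicua. Purkinje cells, the only output neurons of the cerebellar cortex, are among the cells most affected. In these cells, glutamate from parallel fibers acts in part on metabotropic receptors, which work through phospholipase C and inositol trisphosphate receptors to release calcium from stores.

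Between 64233070 and 74890586 fragments per library were counted on genes, and 20913 genes were tested. All 8 mice had the pattern of males, with 0.260 to 0.945 CPM (edgeR counts per unit of library size) of Xist and 87.3 to 101 CPM of Ddx3y. The labels do not state whether mice were littermates, so p-values measure the spread between these 8 mice. Choroid plexus RNA was uneven. The mean over 16 choroid plexus markers was 4.63, 5.12, 3.58 and 5.86 log2 CPM in SCA1 mice 1 to 4 and 2.05, 0.35, 4.64 and 4.66 log2 CPM in WT mice 1 to 4. WT mice 1 and 2 lay below every SCA1 mouse, while WT mice 3 and 4 lay within the SCA1 range. The first principal component, 55.4% of the variance of the most variable genes, ordered the mice almost as these markers did.

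The minus strand of chromosome 13 (45549755 to 45965008, GRCm38) holds Atxn1, in which the repeat was expanded. Its level was 50.8, 55.0, 51.1 and 50.0 CPM in WT mice 1 to 4 and 56.3, 59.6, 65.2 and 59.3 CPM in SCA1 mice 1 to 4. Every SCA1 mouse lay above every WT mouse, but the log2 difference of 0.22 (SE 0.05) did not pass the test (adjusted p = 0.0530), and the other batch held 47.9 to 61.5 CPM. These counts do not see the repeat length and so do not check the genotype labels. Atxn1l, the paralog that also binds Capicua, had 59.8 ± 3.10 CPM in WT and 57.8 ± 4.30 CPM in SCA1 mice (SD, n = 4 each). Of 84 genes tested within 5 Mb of Atxn1, 3 fell and 0 rose at an adjusted p under 0.05, with a median log2 difference of 0.01. Over all genes tested 1.59% fell and 0.430% rose.

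Across all genes, more fell than rose. At an adjusted p under 0.05, 332 genes fell (1.59% of those tested) and 90 rose (0.430%). All but 2 of these 422 genes had no overlap between the groups, whereas 4.97% of all genes had every SCA1 mouse below every WT mouse and 4.25% had every SCA1 mouse above. The changes were mostly modest. The median log2 difference was -0.34 among fallen and 0.34 among risen genes, and it passed 1 in size for 21 fallen and 3 risen genes. At the stricter thresholds of an adjusted p under 0.01 and an absolute log2 difference over 0.5, 56 genes fell (0.268%) and 12 rose (0.0574%). Protein-coding genes made up 91.6% of the fallen and 94.4% of the risen genes, against 73.8% of all genes tested.

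**Figure D1:**
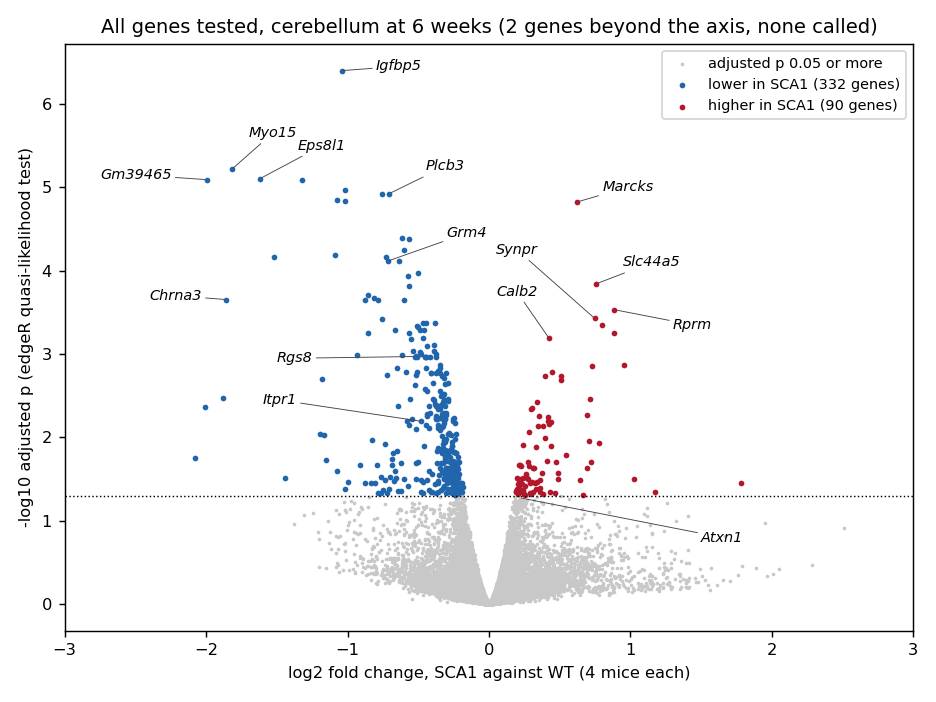
Each point is 1 of 20913 genes, with its log2 fold change of SCA1 against WT (4 mice each) on the x axis and the -log10 adjusted p on the y axis. The 332 fallen genes (blue) outnumber the 90 risen genes (red), and Igfbp5 has the lowest adjusted p.

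The count depended on which libraries were in the fit. Leaving out WT mice 1 and 2, with little choroid plexus RNA, gave 78 fallen and 17 risen genes. With the choroid plexus level as a covariate the counts were 137 and 47, and with all 24 libraries and a batch term they were 64 and 23. In each of these 3 fits all 332 fallen and all 90 risen genes kept their direction. For the fit with a batch term this was nearly fixed in advance, since SCA1 was still set against the same WT mice. Leaving out WT mice 1 and 2 could hardly change it either, since all but 2 of the 422 called genes had no overlap. With all 8 WT libraries and no batch term, 304 of the 332 and 80 of the 90 kept their direction.

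The Purkinje cell markers were lower together. Of 30 markers, 22 fell and 0 rose, and their median log2 difference was -0.32, against 0.01 over all genes tested. In 26 of 30 every SCA1 mouse lay below every WT mouse, against 4.97% of all genes tested. The mean log2 ratio of the list to its WT level was -0.38, -0.29, -0.31 and -0.36 in SCA1 mice 1 to 4 and 0.12, -0.05, -0.06 and -0.01 in WT mice 1 to 4. The groups did not overlap, and WT mouse 1 stood highest. The sum of the list was 14636 to 16799 CPM in WT and 11411 to 12424 CPM in SCA1 mice. Without WT mice 1 and 2, 7 of 30 markers fell with a median of -0.30, and with the choroid plexus covariate 13 fell with a median of -0.30. With all 24 libraries 6 fell, with a median of -0.33, and without WT mouse 1 alone 14 fell, with a median of -0.28. The median with all 24 libraries could hardly move, because the batch term leaves SCA1 set against the same WT mice.

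**Figure D2:**
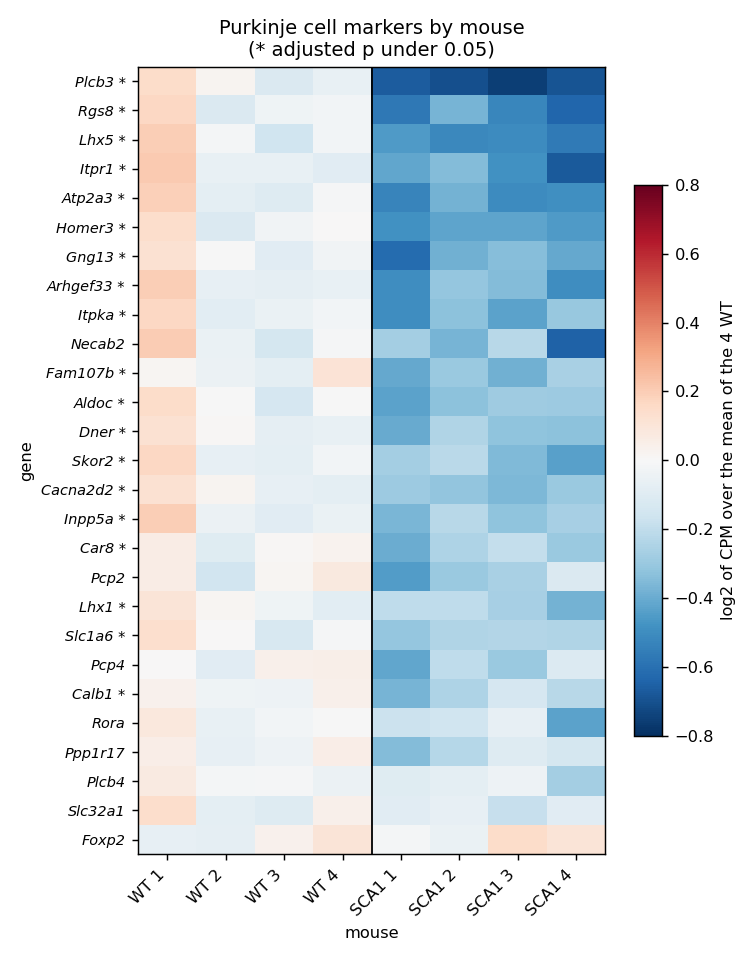
Lines are 27 of the 30 Purkinje cell markers and columns the 8 mice, colored by the log2 of the CPM over the mean of the 4 WT mice, and stars mark adjusted p under 0.05. The 4 SCA1 columns are blue for nearly every marker, and Foxp2 at the bottom is the 1 marker with a positive log2 difference.

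Among the Purkinje markers, the largest differences included genes of signal transduction. Plcb3, a phospholipase C beta on chromosome 19 (6952325 to 6976470), had 104, 94.9, 86.4 and 89.8 CPM in WT mice 1 to 4 and 58.8, 57.5, 55.5 and 57.9 CPM in SCA1 mice 1 to 4. The lowest WT mouse was far above the highest SCA1 mouse, and Plcb3 fell by 0.71 on the log2 scale (SE 0.06, adjusted p = 1.2e-05). Rgs8, which speeds the shutoff of G protein signals, had 1612, 1328, 1404 and 1418 CPM in WT and 968, 1108, 1000 and 925 CPM in SCA1 mice. Again no values overlapped, with a log2 difference of -0.53 (SE 0.07, adjusted p = 0.00108). Homer3, a scaffold of postsynaptic glutamate signaling, fell from 215 ± 16.0 to 158 ± 3.33 CPM (SD, n = 4 each).

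Itpr1, the inositol trisphosphate receptor of calcium stores, had 4221, 3491, 3496 and 3425 CPM in WT and 2732, 2868, 2608 and 2292 CPM in SCA1 mice. It fell by 0.48 on the log2 scale (adjusted p = 0.00643), with WT mouse 1 apart from the other WT mice. In the other batch, however, WT mice had 1935 to 2365 CPM, within or below the SCA1 range. The level of this gene in WT mice thus differed by more between the batches than between the genotypes. Atp2a3, a calcium pump of the stores, fell by 0.48.

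Of the 5 transcription factors on the Purkinje list, 3 fell. Lhx5 had 33.8, 29.1, 26.4 and 29.0 CPM in WT and 21.5, 20.6, 20.8 and 19.9 CPM in SCA1 mice, a log2 difference of -0.51 (adjusted p = 0.00105). Lhx1 fell by 0.26 and Skor2 by 0.32, calls that were lost in 11 and 16 of 24 alternatives. Rora encodes the nuclear receptor that Purkinje cells need to mature and that ATXN1 is known to bind, and it had 444, 402, 413 and 419 CPM in WT and 372, 375, 400 and 311 CPM in SCA1 mice. Its groups were separate by a narrow gap between 400.0 and 402 CPM, and its log2 difference of -0.20 did not pass (adjusted p = 0.172). Foxp2 had a log2 difference of 0.04 with overlapping groups.

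Calb1, the calcium buffer that marks Purkinje cells in tissue sections, fell from 1185 ± 34.5 to 1003 ± 67.5 CPM (SD, n = 4 each), a log2 difference of -0.24 at an adjusted p of 0.0488. This call was lost in 12 of 24 alternatives. Other members that fell were Aldoc (by 0.34), Dner (by 0.33), Car8 (by 0.28) and the glutamate transporter Slc1a6 (by 0.26). Inpp5a, Cacna2d2, Fam107b, Arhgef33, Itpka and Gng13 fell by 0.30 to 0.43. The 8 markers that did not pass were Pcp2 (-0.28), Pcp4 (-0.25), Ppp1r17 (-0.20), Plcb4 (-0.12), Necab2 (-0.37), Rora, Foxp2 and the vesicular GABA transporter Slc32a1 (-0.11), which other inhibitory neurons also use.

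Promoters are shown for 3 of the fallen Purkinje markers, because RORalpha binds DNA at sites that hold AGGTCA and is a known partner of ATXN1. The windows are the 250 bases before the RefSeq start site on GRCm38.p6, written 5′ to 3′ on the strand of the gene, and capitals mark AGGTCA or its reverse complement TGACCT. The Rgs8 window is chr1:153665423-153665672 on the plus strand, the Homer3 window chr8:70282749-70282998 on the plus strand and the Plcb3 window chr19:6969815-6970064 on the minus strand.
Rgs8: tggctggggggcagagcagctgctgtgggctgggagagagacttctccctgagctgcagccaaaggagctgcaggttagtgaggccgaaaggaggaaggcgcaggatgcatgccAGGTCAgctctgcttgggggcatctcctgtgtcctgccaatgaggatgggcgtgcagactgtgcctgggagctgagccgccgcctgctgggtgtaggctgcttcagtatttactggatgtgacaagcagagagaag
Homer3: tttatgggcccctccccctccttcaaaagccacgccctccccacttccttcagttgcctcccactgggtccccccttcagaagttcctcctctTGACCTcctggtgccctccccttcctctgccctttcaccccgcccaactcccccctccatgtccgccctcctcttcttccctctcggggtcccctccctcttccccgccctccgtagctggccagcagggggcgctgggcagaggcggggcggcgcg
Plcb3: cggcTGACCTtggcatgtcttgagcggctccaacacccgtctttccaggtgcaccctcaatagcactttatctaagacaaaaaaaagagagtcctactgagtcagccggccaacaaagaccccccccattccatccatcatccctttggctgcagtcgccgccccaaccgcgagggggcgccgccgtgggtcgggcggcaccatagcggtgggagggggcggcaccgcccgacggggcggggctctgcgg
The capitals began 136 bases before the start site in Rgs8, 157 in Homer3 and 246 in Plcb3, and those of Homer3 and Plcb3 read TGACCT. With windows of 300 bases, to 50 bases past the start, 20 of the 30 Purkinje markers matched RefSeq entries by symbol, with 29 windows. AGGTCA on either strand was in 9 of these 29 windows (31.0%), 3 of them windows of Pcp2, and in 13.2% of the 16788 windows of all genes tested. Among the 19 windows of Purkinje markers that fell it was in 5, those of Arhgef33, Dner, Homer3, Plcb3 and Rgs8. Over all fallen genes the share was 12.2% of 295 windows, and over all risen genes 3.95% of 76 windows. A match is only a description of the letters and not a bound site.

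The pathway of metabotropic glutamate signaling was lower as well, and 11 of its 22 genes are also on the Purkinje list. Of the 22 genes, 14 fell and 0 rose, with a median log2 difference of -0.30. Beside the genes above, Dagla, which makes the endocannabinoid that silences parallel fibers, had 151, 134, 126 and 130 CPM in WT and 90.0, 98.6, 85.0 and 82.9 CPM in SCA1 mice. These did not overlap, and Dagla fell by 0.60 (SE 0.07, adjusted p = 0.000223). WT mice of the other batch had 94.5 to 107 CPM of Dagla, below the WT range and partly within the SCA1 range. Prkg1, the cGMP-dependent kinase of parallel fiber depression, fell by 0.58, from a mean of 23.5 to 15.7 CPM. Its mean in WT mice of the other batch was 15.9 CPM, within the SCA1 range. The G proteins that link such receptors to the phospholipase were close to the WT level, with log2 differences of -0.06 for Gnaq and -0.02 for Gna11. Without WT mice 1 and 2, 7 of the 22 fell, and with all 24 libraries 4 fell.

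Among 19 calcium buffers, pumps and stores, 8 fell and 1 rose. The pumps Atp2a2 and Atp2b2 fell by 0.36 and 0.37, the neuronal sensor Hpcal1 by 0.29, the exchanger Slc8a2 by 0.27 and the ryanodine receptor Ryr1 by 0.31. In that order, these calls were lost in 7, 4, 3, 15 and 12 of 24 alternatives. The other-batch mean of Ryr1 (65.55 CPM) lay below every SCA1 mouse. Calb2, a calcium buffer of granule cells, was the member that rose. It had 473, 480, 443 and 481 CPM in WT and 655, 582, 633 and 650 CPM in SCA1 mice, a log2 difference of 0.42 (adjusted p = 0.00065). The 4 WT mice of the other batch had 636 to 701 CPM, within and above the SCA1 values. Pvalb, the buffer of Purkinje cells and interneurons, had 584 ± 31.7 CPM in WT and 527 ± 44.2 CPM in SCA1 mice (SD, n = 4 each), and its groups overlapped.

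Of 31 ion channel genes of Purkinje firing, 9 fell and 0 rose. Cacna1g, a T-type calcium channel, had 499.6, 421, 387 and 419 CPM in WT and 326, 348, 312 and 297 CPM in SCA1 mice. The groups did not overlap, and Cacna1g fell by 0.43 (adjusted p = 0.00768), while WT mice of the other batch had 272 to 313 CPM. The potassium channel Kcnc1 fell by 0.32, Kcna2 by 0.25, the large-conductance channel Kcnma1 by 0.32 and the calcium channel subunit Cacnb2 by 0.29. For Kcnc1, Kcna2 and Kcnma1 too, the mean of WT mice in the other batch lay within or below the SCA1 range. Cacna1a, the main calcium channel of Purkinje cells, had a log2 difference of -0.18 with overlapping groups. Among 30 tested genes of other spinocerebellar ataxias, 7 fell, Itpr1 and Cacna1g among them, and Ppp2r2b rose by 0.23 (adjusted p = 0.0351). The call of Ppp2r2b was lost in 15 of 24 alternatives, and its other-batch mean of 51.8 CPM lay within the SCA1 range.

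**Figure D3:**
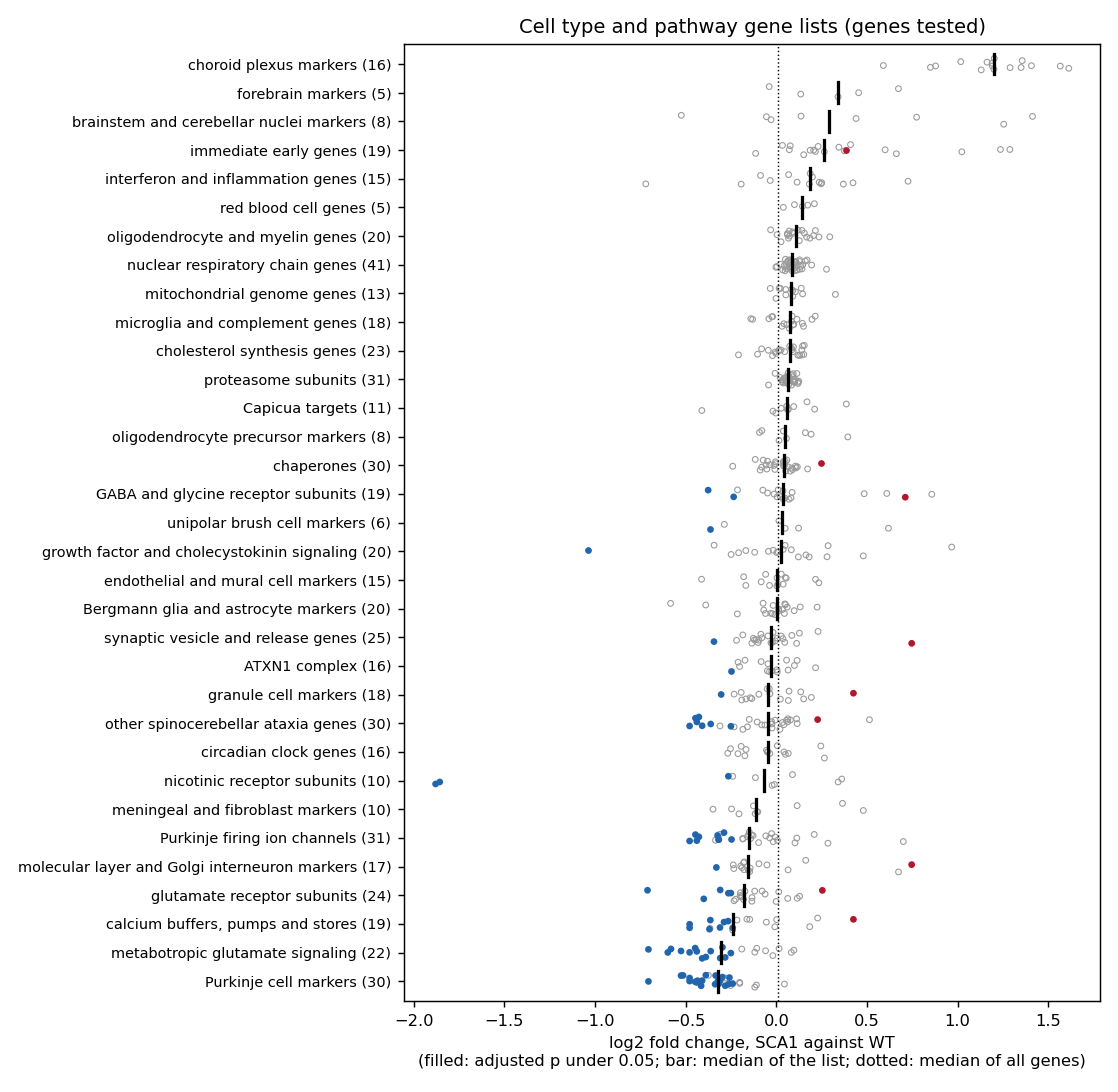
Each line is 1 of 33 gene lists with the number of genes tested, each circle the log2 fold change of 1 gene, filled where the adjusted p is under 0.05, and the bar the median of the list. The Purkinje cell, metabotropic glutamate and calcium lists have the lowest medians (-0.32, -0.30 and -0.24), and the choroid plexus list the highest (1.20) with 0 filled circles.

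Transmitter receptors changed gene by gene. Of 24 glutamate receptor subunits, 5 fell and 1 rose. Grm4, the presynaptic receptor of granule cell terminals, had 726, 742, 650 and 635 CPM in WT and 468, 384, 424 and 406 CPM in SCA1 mice. Its lowest WT value was well above its highest SCA1 value, and it fell by 0.71 (SE 0.07, adjusted p = 7.66e-05). The counts were made without regard to strand, and Gm49789, a short gene on the other strand inside Grm4, fell with it. Whether reads of 1 of these genes were counted on the other was not tested. Gria3 fell by 0.26 and Grik3 by 0.40, and Grik2 rose by 0.25, calls that were lost in 7, 17 and 12 of 24 alternatives. The other-batch means of Gria3 (101.5 CPM) and Grik3 (60.3 CPM) lay below every SCA1 mouse. The metabotropic GABA receptor subunits Gabbr1 and Gabbr2 fell by 0.24 and 0.38. Glra2, a glycine receptor subunit, rose by 0.71 from 3.59 ± 0.40 to 5.88 ± 0.62 CPM (SD, n = 4 each), and its level in the other batch was 4.85 to 6.03 CPM.

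The nicotinic receptor genes Chrna3 and Chrnb4, which lie side by side on chromosome 9 (55010111 to 55048779), had the largest falls among protein-coding genes over 1 CPM. Chrna3 had 2.02, 2.12, 2.25 and 1.56 CPM in WT and 0.753, 0.459, 0.596 and 0.384 CPM in SCA1 mice, a log2 difference of -1.86 (SE 0.21, adjusted p = 0.000223). Chrnb4 had 1.81, 2.79, 1.60 and 1.04 CPM in WT and 0.611, 0.526, 0.407 and 0.411 CPM in SCA1 mice, a log2 difference of -1.88 (SE 0.28, adjusted p = 0.00334). Neither gene overlapped between the groups, and WT mice of the other batch had 1.48 to 2.05 CPM of Chrna3, as in WT. Chrnb2, which encodes a subunit of the main brain receptor, fell by 0.26, and the other 7 nicotinic genes tested did not pass.

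Igfbp5, which binds insulin-like growth factors outside cells, had the lowest adjusted p of all genes. It lies on chromosome 1 (72857932 to 72874884) and had 232, 227, 234 and 255 CPM in WT and 109, 121, 122 and 108 CPM in SCA1 mice. Every SCA1 mouse was far below every WT mouse, and the log2 difference was -1.04 (SE 0.05, adjusted p = 4.02e-07). The other batch had 242 to 294 CPM, and the call held in all 24 alternatives. The other 19 tested genes of growth factor and cholecystokinin signaling did not pass, with a median over the 20 genes of 0.02.

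The fallen genes with the lowest adjusted p next to Igfbp5 were Myo15, Eps8l1, Car9, Gm39465, Rasal1, Clstn2, 4930447F24Rik, Unc13d, Aqp6 and Gm43398, along with Plcb3. Eps8l1, an actin regulator, had 11.2, 14.9, 11.9 and 15.9 CPM in WT and 3.88, 4.48, 4.59 and 4.56 CPM in SCA1 mice (log2 difference -1.62). Car9, a carbonic anhydrase at the cell surface, had 11.9, 11.9, 11.2 and 10.6 CPM in WT and 4.90, 4.10, 4.04 and 5.24 CPM in SCA1 mice (log2 difference -1.32). Each of these genes was clearly separate between the groups, and the other batch had 9.35 to 12.4 CPM of Eps8l1, partly within the WT range, and 8.35 to 9.87 CPM of Car9, between the groups. Clstn2, a calsyntenin of synapses, fell by 0.76, and the water channel Aqp6 fell by 0.61. Unc13d, which primes vesicles, had a log2 difference of -1.02, and so did the Ras regulator Rasal1. The other-batch mean of Gm43398 (27.5 CPM) lay below every SCA1 mouse, and that of Rasal1 (15.0 CPM) between the groups. With all 8 WT libraries and no batch term the calls of Gm43398 and Rasal1 were lost. Means of Plcb3, Gm39465, 4930447F24Rik and Unc13d in the other batch also lay between the groups, and those of Clstn2 and Aqp6 within the WT range.

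Myo15, the unconventional myosin known from the inner ear, differed between batches as well as between genotypes. It had 8.84, 10.0, 7.67 and 7.45 CPM in WT and 2.29, 2.16, 2.89 and 2.30 CPM in SCA1 mice, a log2 difference of -1.82 (adjusted p = 6.11e-06). The 4 WT mice of the other batch had 1.70 to 2.89 CPM, a range that holds all 4 SCA1 values. With all 8 WT mice and no batch term its log2 difference was -1.16 and the adjusted p 0.319. For 134 of the 332 fallen genes the mean of the other batch was at or below the highest SCA1 mouse, and for 40 of the 90 risen genes it was at or above the lowest. Against the range of the 4 WT mice of the tested batch, which also chose these genes, the mean of the other batch lay below it for 199 of the 332 fallen genes and above it for 63 of the 90 risen genes. Over all genes it lay below that range in 37.0% and above it in 33.4%. Among the Purkinje markers that fell, only Itpr1 and Arhgef33 had an other-batch mean at or below the SCA1 range.

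**Figure D4:**
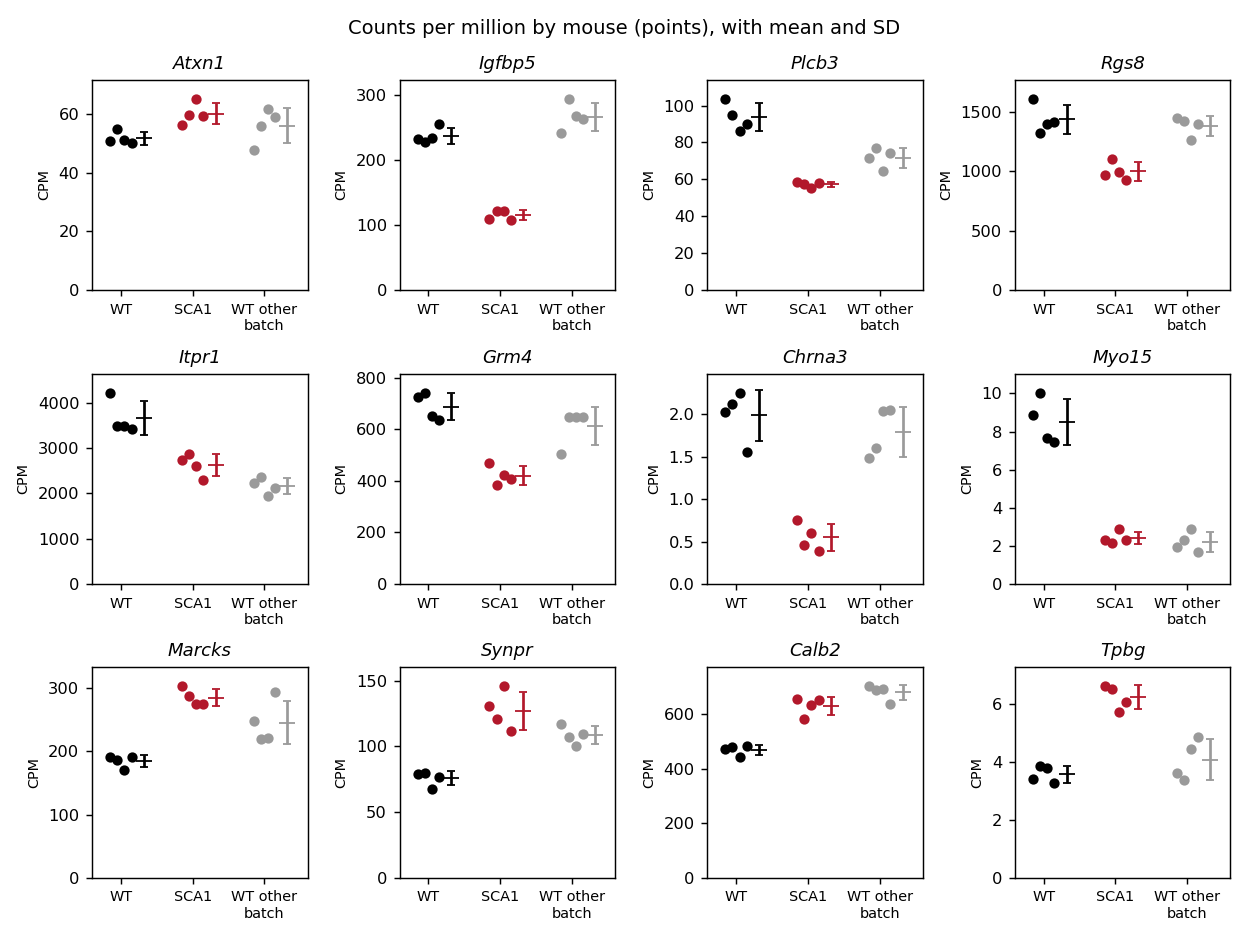
Each panel shows the CPM of 1 gene in the 4 WT mice (black) and 4 SCA1 mice (red) of the tested batch and in the 4 WT mice of the other batch (gray), with the mean and SD beside the points. Igfbp5, Rgs8 and Chrna3 in the other batch sit near WT, while Itpr1, Myo15 and Calb2 in the other batch sit near SCA1.

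Long noncoding genes fell in a block on chromosome 9. Gm39465 (122019528 to 122051463) had 11.3, 11.4, 9.61 and 11.7 CPM in WT and 2.19, 2.29, 3.52 and 3.03 CPM in SCA1 mice, a log2 difference of -1.997 (adjusted p = 8.14e-06). Its neighbors Gm47117, Gm39464 and 4632418H02Rik fell with it. In all, 90 of the 422 genes had another such gene within 200 kb, in 40 groups, of which 38 moved in 1 direction. Neither count was set against all genes tested, and 332 of the 422 genes fell. Closeness and shared direction were thus not tested. In 9 of the 40 groups the spans of genes overlap, and how reads without strand were divided between such genes was not tested. One of the 9 is Gm43398 with Gm42504 and Grid2ip.

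Of the genes that rose, Marcks had the lowest adjusted p. Marcks, a substrate of protein kinase C that binds actin and membranes, had 191, 187, 170 and 192 CPM in WT and 303, 287, 275 and 276 CPM in SCA1 mice. All SCA1 mice were higher, by a log2 difference of 0.62 (SE 0.05, adjusted p = 1.5e-05), and the other batch had 220 to 294 CPM. Synpr, a synaptic vesicle protein, had 79.2, 79.5, 67.8 and 76.8 CPM in WT and 131, 121, 146 and 111.6 CPM in SCA1 mice, a log2 difference of 0.75 (adjusted p = 0.000373). Slc44a5, a choline transporter family member, had 6.13, 7.18, 6.44 and 6.86 CPM in WT and 12.1, 10.7, 11.0 and 11.2 CPM in SCA1 mice. The groups were apart for all of these, and Slc44a5 in the other batch was as in WT, at 4.39 to 6.80 CPM. Synpr in the other batch had 100 to 117 CPM, above every WT mouse of the tested batch and partly within the SCA1 range. With all 8 WT libraries and no batch term the calls of Marcks and Synpr were lost (adjusted p = 0.228 and 0.224).

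Low-level genes were among the largest rises. Sfrp4, a secreted Wnt antagonist, rose by 0.88 from 3.43 ± 0.42 to 6.32 ± 0.57 CPM (SD, n = 4 each), and the other batch had 2.38 to 2.83 CPM. Rprm, a regulator of the cell cycle, rose by 0.88, and Tpbg, a membrane glycoprotein that tempers Wnt signals, by 0.80. Mndal and Ifi203, interferon-inducible genes whose spans overlap on chromosome 1, rose by 0.95 and 0.69, whereas 0 of 15 tested genes of the interferon and inflammation list passed. The protease Adamts6 rose by 0.51, mt-Tp, a mitochondrial transfer RNA, by 0.51, and A830018L16Rik by 0.73. For mt-Tp and A830018L16Rik the other-batch mean lay within or above the SCA1 range. The abundant genes Tuba1a (tubulin) and Tmsb4x (thymosin) rose by 0.21 and 0.24, and both were higher still in the other batch, with means of 523 and 353 CPM against 421 and 320 CPM in SCA1.

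Other neurons showed few calls. Of 18 granule cell markers, Tiam1 fell by 0.30, Calb2 rose, and the median was -0.04. Gabra6, the receptor subunit that defines granule cells, had 787 CPM in WT and 826 CPM in SCA1 mice with overlapping groups. Of 17 markers of molecular layer and Golgi interneurons, Prkcd fell by 0.33 and Synpr rose, with a median of -0.16. Unipolar brush cells, excitatory interneurons of the granular layer, had 1 of 6 markers fall, Svil, by 0.36. Of 25 synaptic vesicle genes, Syt7, a calcium sensor of slow release, fell by 0.34, and Synpr rose. The calls of Tiam1, Prkcd, Svil and Syt7 were lost in 13, 7, 10 and 4 of 24 alternatives. For Prkcd, Svil and Syt7 the other-batch mean lay within the SCA1 range, and for Tiam1 within the WT range.

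None of the lists of glia, vessels and meninges had a call. Bergmann glia and astrocyte markers had 0 of 20 called and a median of 0.00, and Gfap, the filament of reactive astrocytes, had 178 ± 3.45 CPM in WT and 186 ± 24.0 CPM in SCA1 mice (SD, n = 4 each). Oligodendrocyte and myelin genes had 0 of 20 called, yet 19 of 20 log2 differences were positive with a median of 0.11, which turned to -0.18 with all 8 WT mice and no batch term. Mobp, the myelin gene with the lowest p, had 768, 835, 832 and 988 CPM in WT and 918, 1113, 1046 and 1122 CPM in SCA1 mice, and its groups overlapped (log2 difference 0.29, adjusted p = 0.0935). Microglia and complement genes had a median of 0.08, oligodendrocyte precursors 0.05, endothelial and mural cells 0.00, meningeal cells -0.11 and red blood cell genes 0.14. For neighboring tissue, 8 of 21 brainstem and nuclei markers and 5 of 8 forebrain markers passed the filter on low counts, and 0 were called.

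All 16 choroid plexus markers had positive log2 differences, between 0.59 and 1.61 with a median of 1.20, and 0 passed, with overlapping groups for each. Ttr, the thyroxine carrier of the plexus, had 1615, 2859, 852 and 4982 CPM in SCA1 mice 1 to 4 and 183, 9.36, 1646 and 1641 CPM in WT mice 1 to 4. The part of the choroid plexus in the other results was not tested beyond the covariate and the fit without WT mice 1 and 2.

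**Figure D5:**
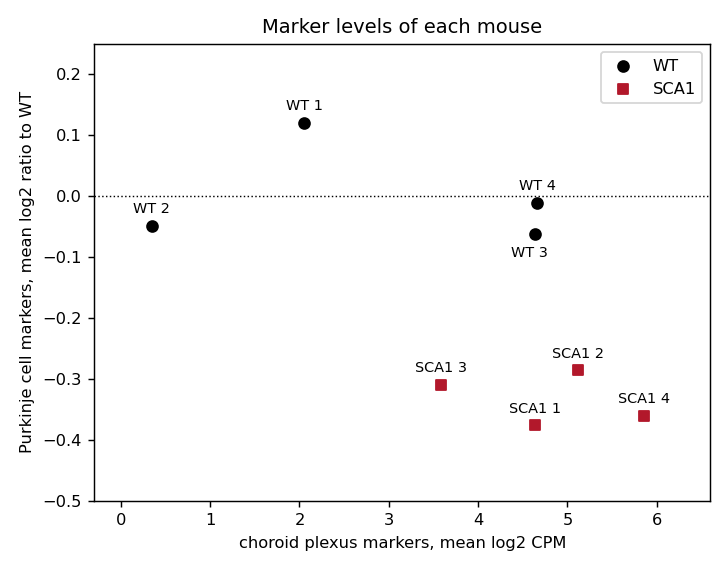
Each point is 1 mouse, with the mean log2 CPM of 16 choroid plexus markers on the x axis and the mean log2 ratio of 30 Purkinje cell markers to WT on the y axis. The 4 SCA1 mice lie at -0.29 or lower and the 4 WT mice at -0.06 or higher, while the choroid plexus levels of the groups overlap.

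The partners of ATXN1 were near the WT level. Of 16 genes tested, 1 fell, Ywhah, a 14-3-3 protein of the family that binds phosphorylated ATXN1 (log2 difference -0.25, adjusted p = 0.0334). Its call was lost in 12 of 24 alternatives, and 1.59% of all genes tested fell. Cic, which encodes Capicua, had 241, 242, 228 and 243 CPM in WT and 220, 247, 200.1 and 179 CPM in SCA1 mice, with overlapping groups. None of 11 targets of Capicua passed, and their median was 0.06. The Capicua octamers TGAATGAA and TGAATGGA, searched on both strands, shared bases with AGGTCA in 2 of the 129 promoters that hold both motifs. They were in 5 of 295 windows of fallen genes (1.69%), in 0 of 76 windows of risen genes and in 1.65% of the windows of all genes tested.

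Lists of cell maintenance held small differences. None of 31 proteasome subunits passed, but 29 log2 differences were positive, 9 genes had every SCA1 mouse above every WT mouse, and the median was 0.07. The 41 nuclear genes of the respiratory chain had 0 calls, 40 positive log2 differences and a median of 0.09. In 10 of these 41 every SCA1 mouse lay above every WT mouse, as it did in 4.25% of all genes tested. Psmc4 and Atp5o had the lowest p of these lists, with log2 differences of 0.12 and 0.28 (adjusted p = 0.203 and 0.150). With all 8 WT mice and no batch term both medians were negative, at -0.07 and -0.08, and with offsets for GC content and length they were 0.02 and 0.05. The 13 protein genes of the mitochondrial genome (median 0.08), 23 cholesterol synthesis genes (0.07) and 16 clock genes (-0.05) had 0 calls. Of 30 chaperones Hspa2 rose by 0.25, and of 19 immediate early genes Btg2 rose by 0.38 with a list median of 0.26. These calls were lost in 17 and 16 of 24 alternatives.

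The fallen genes were longer and richer in GC than the others. The median GC content of the longest transcript was 54.3% in fallen, 44.5% in risen and 49.1% in all genes tested. Median transcript lengths were 4363, 3080 and 2858 bases. With offsets for GC content and length 297 genes fell and 89 rose, 258 and 61 of them shared with the counts above, and 23 of 30 Purkinje markers fell.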

How the data were processed

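RNA of whole cerebellum was sequenced as paired reads, 1 library per mouse. The authors removed adapters with Trimmomatic 0.36, used STAR 2.7.2d to align to GRCm38.p6 and to count, and deposited the raw counts of fragments per gene, without normalization or batch correction. The unstranded counts were used, since the totals of the strands had a ratio of 1.000 to 1.002. Of 54232 genes, 54165 matched GENCODE M21.

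Genes kept by edgeR's expression filter were normalized by TMM (factors 0.985 to 1.031) and tested with edgeR 4.0.16's quasi-likelihood test with robust estimation, followed by Benjamini-Hochberg adjustment over 20913 genes, in R 4.3.3. The median biological coefficient of variation was 10.8%. CPM are edgeR counts scaled to the TMM library size. The test was checked on simulated counts. Pairs of mice of 1 genotype differed by a chi-square of 8.67 to 38.7 per degree of freedom, beyond counting error.

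The groups, the gene lists and the rules for naming genes were chosen with earlier results of these data known. Genes named are Atxn1 and Atxn1l, called genes with the lowest adjusted p, largest change or highest level, called list members, and for lists without a call the member with the lowest p, plus Calb1 and Gfap. Other list members given as values without a call, and Gm47117, Gm39464, 4632418H02Rik, Gm42504, Gm49789, Grid2ip and Ifi203, were chosen after their values were seen, as neighbors or by role. The alternatives were other normalizations, filters, strands, thresholds, tools (DESeq2 1.42.0, ComBat-seq of sva 3.50.0), libraries, and Xist or choroid plexus covariates. Some genes and 1 other counted feature are not reported here, and genes among these that belong to a list stay in its counts.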

Additional observations from a re-analysis of the deposited data

Results flagged for a closer look

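In groups of 4 mice, a value was set apart by Dixon's test at the 95% level where 1 mouse lay far from the other 3. Chance alone marks about 1 in 20 groups, 9.9 of the 198 groups tested here, and 10 were marked. Of these, 6 were a high value in WT mouse 1: Itpr1 (4221 CPM against 3425 to 3496 in the other WT mice), Inpp5a (574 against 471 to 484), Arhgef33 (240.2 against 199 to 201), Svil (39.1 against 33.2 to 33.6), Atp2b2 (995 against 877 to 891) and Grik3 (112 against 91.8 to 94.1). All 6 genes fell in SCA1 mice, and WT mouse 1 also had the highest mean of the Purkinje markers. In SCA1 mice the low values were Eps8l1 (3.88 CPM in mouse 1, against 4.48 to 4.59), Slc1a6 (193 CPM in mouse 1, against 202 to 203) and Gabbr1 (679 CPM in mouse 4, against 729 to 738). SCA1 mouse 4 also had the largest share of counts on mitochondrial genes, 3.97% against 3.32% to 3.40%.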

How the results depend on the processing

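Of the 74 called genes among the 94 covered by the naming rule, 16 kept their call in all 24 alternatives, 58 lost it in at least 1, and 1, Tuba1a, changed direction in 1. Reported counts were 332 fallen and 90 risen genes. They moved by over 1.5 times to 624 and 238 with DESeq2 on the 8 libraries, 506 and 200 without a filter, 64 and 23 with all 24 libraries and a batch term, 149 and 20 with all 8 WT libraries and no batch term, 137 and 47 with the choroid plexus covariate, and 56 and 12 or 520 and 202 at the stricter and looser thresholds. Risen genes numbered 256 after ComBat-seq and DESeq2 (44.9% of calls, against 21.3%) and 60 with the Xist covariate. Leaving out 1 mouse gave 173 to 339 fallen and 33 to 142 risen genes. Fallen genes numbered 173 without WT mouse 1, 193 without WT mouse 2 and 198 without SCA1 mouse 3, and risen genes were 49, 52 and 142 without SCA1 mouse 1, 3 or 4, 33, 38 and 37 without WT mouse 1, 2 or 3, and 61 without SCA1 mouse 2. Fits without WT mice 1 and 2 (78 and 17) and with GC and length offsets (297 and 89) were chosen after seeing the data.

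With all 8 WT libraries and no batch term, log2 differences turned to -0.10 for Tuba1a, -0.12 for Kcnj8, -0.90 for Hba-a2, -0.063 for Psmc4, -0.036 for Atp5o, -0.048 for Fdft1, -0.094 for Nfkbia and -0.15 for Gfap. Gfap was between -0.012 (without SCA1 mouse 2) and 0.12 (without SCA1 mouse 4). With GC and length offsets Atxn1l was at 0.0040 and mt-Nd6 at -0.011. The causes were not tested. Atxn1 passed in 6 of 24 alternatives, with log2 differences of 0.13 to 0.28. No paired analysis was possible because the labels give the genotypes no shared replicate numbers.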

Other observations

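Genes outside the lists were read from the called genes after their values were seen. Shank2, a scaffold of glutamatergic synapses, fell in SCA1 mice from 321 to 226 CPM (log2 difference -0.50, adjusted p = 0.000469), and Grid2ip, a postsynaptic scaffold, from 101 to 58.5 CPM (log2 difference -0.78). The subunits of the ATP-sensitive potassium channel, Abcc8 and Kcnj11, neighbors on chromosome 7, fell by 0.35 and 0.23. Kcnh3, a brain potassium channel, fell by 1.09.

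Among genes that rose outside the lists were Tmsb10 (log2 difference 0.45), Uchl1, a neuronal ubiquitin hydrolase (0.42), and Psme1, an activator of the proteasome (0.36). Uchl1 rose from 70.3 to 94.0 CPM (adjusted p = 0.00573).

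Near Atxn1, the genes that fell within 5 Mb were Gm5083 (log2 difference -0.73), A330076C08Rik (-0.93) and Fgd3 (-0.28).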
